A study of Homo sapiens with 6 samples.

Results

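The AP-1 transcription factor genes FOS, FOSB, FOSL1, FOSL2, JUN, JUNB and JUND were examined together with ATF3, CREB5 and MAFF in HT29, a human colorectal adenocarcinoma cell line with the wild-type genotype according to the labels. These 10 genes were taken by symbol from the 60676 genes listed, and all 10 were found and had reads in every library. They were chosen by family and with the measured changes in these libraries known, so their levels and differences are a description. Whether a gene lay past the limit used for all genes is stated as part of that description, with no p-value, and supports nothing further. RNA was sequenced from 6 libraries after 48 h of culture, 2 from untreated cells in control medium, 2 from histidine-depleted cells and 2 from tryptophan-depleted cells. The histidine-free medium was RPMI based and the tryptophan-depleted medium DMEM F-12 based, both with dialysed serum, and the base of the control medium was not named for these libraries, so that base medium and depletion cannot be told apart. The study used tryptophan shortage as the comparison for histidine shortage, and the questions here are how each depletion differed from untreated cells and how both differed from each other.

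AP-1 is a pair of basic leucine zipper proteins bound to DNA. JUN proteins pair with themselves or with FOS proteins, whereas FOS proteins need a partner, and the mixture of subunits sets which sites are bound and how strongly transcription is driven. Many of these genes are immediate early genes, switched on within minutes of growth factors or stress through MAP kinases, and FOSL1 and JUN are known for their part in the invasive behaviour of carcinoma cells, those of the colon included.

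The sequences before the start sites of several of these genes carry the elements that AP-1 and its relatives bind, and they are shown because members of the group can bind the regulatory regions of others. RefSeq entries (GRCh38.p14) were matched for 9 of the 10 genes, with 13 start sites, and FOSL1 was not among them. The letters searched on both strands were TGACTCA (the AP-1 site, or TRE), TGACGTCA (the cyclic AMP response element, or CRE), TGACATCA (the variant known from the JUN promoter) and the shorter core TGACG, which also lies inside each CRE. Among all 35116 windows of the same length, 4.20% held the TRE, 1.65% the CRE, 2.37% the JUN variant and 21.2% the core. Each line gives the 250 bases before the start, 5′ to 3′ on the strand of the gene, with matches in capitals. The windows are FOS (chr14:75278578-75278827, plus strand), FOSB (chr19:45467746-45467995, plus), JUN (chr1:58784048-58784297, minus), JUND (chr19:18281623-18281872, minus), the first start of ATF3 (chr1:212565157-212565406, plus), the third start of CREB5 (chr7:28685883-28686132, plus) and the first start of MAFF (chr22:38201744-38201993, plus).
FOS: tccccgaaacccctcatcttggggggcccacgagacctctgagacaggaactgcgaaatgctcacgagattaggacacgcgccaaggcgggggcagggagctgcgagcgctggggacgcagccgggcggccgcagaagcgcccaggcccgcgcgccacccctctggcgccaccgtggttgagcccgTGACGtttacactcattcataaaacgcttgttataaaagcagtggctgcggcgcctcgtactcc
FOSB: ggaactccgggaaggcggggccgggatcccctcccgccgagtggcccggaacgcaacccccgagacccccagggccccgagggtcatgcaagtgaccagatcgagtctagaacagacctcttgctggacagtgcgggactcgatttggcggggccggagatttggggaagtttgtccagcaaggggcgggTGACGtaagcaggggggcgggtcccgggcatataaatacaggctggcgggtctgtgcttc
JUN: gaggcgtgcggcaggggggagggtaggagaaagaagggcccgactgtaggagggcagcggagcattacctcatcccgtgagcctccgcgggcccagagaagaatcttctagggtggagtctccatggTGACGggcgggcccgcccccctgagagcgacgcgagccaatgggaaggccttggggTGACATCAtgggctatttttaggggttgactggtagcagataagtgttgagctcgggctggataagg
JUND: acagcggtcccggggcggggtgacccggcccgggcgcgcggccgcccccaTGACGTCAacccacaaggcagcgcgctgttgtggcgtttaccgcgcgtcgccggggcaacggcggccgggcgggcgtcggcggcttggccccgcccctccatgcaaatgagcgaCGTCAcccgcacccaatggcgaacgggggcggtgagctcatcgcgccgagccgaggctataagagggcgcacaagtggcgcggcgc
ATF3: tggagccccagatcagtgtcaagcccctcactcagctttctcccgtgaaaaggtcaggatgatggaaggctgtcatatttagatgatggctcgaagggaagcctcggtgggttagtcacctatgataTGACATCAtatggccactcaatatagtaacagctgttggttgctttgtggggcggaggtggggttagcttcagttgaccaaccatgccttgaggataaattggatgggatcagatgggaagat
CREB5: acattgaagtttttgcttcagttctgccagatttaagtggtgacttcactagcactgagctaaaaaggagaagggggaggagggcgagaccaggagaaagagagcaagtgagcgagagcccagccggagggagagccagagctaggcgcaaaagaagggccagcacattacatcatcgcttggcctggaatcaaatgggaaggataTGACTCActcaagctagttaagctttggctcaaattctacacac
MAFF: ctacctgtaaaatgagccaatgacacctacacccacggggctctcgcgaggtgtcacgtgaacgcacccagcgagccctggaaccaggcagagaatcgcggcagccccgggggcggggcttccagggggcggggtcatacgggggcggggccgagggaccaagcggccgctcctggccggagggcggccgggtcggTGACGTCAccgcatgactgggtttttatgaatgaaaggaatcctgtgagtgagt
The full CRE stood 54 to 47 bases before the start of MAFF and 200 to 193 bases before that of JUND. The JUN variant lay 67 to 60 bases before the start of JUN and 123 to 116 bases before that of ATF3. The TRE was found in CREB5 alone, 44 to 38 bases before the third start. FOS and FOSB had the core 64 to 60 and 60 to 56 bases before the start. FOSL2 had it 66 to 62 and 201 to 197 bases before the start, and JUNB 137 to 133 bases, in windows not printed here. Outside the full elements, JUN and JUND also held the core, 123 to 119 and 86 to 82 bases before the start. With those inside a CRE counted, 7 of the 13 member windows held the core. These matches are letters in a window and were not measured as bound sites.

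Depth was 46390819 to 64388876 reads per library, and the member with fewest reads in any library, CREB5 after tryptophan depletion, still had 180. Levels are normalized counts, that is reads divided by a size factor set over all 6 libraries (means ± SD of list genes against untreated are instead on the scale of the table of that depletion), and log2 differences are of log2(normalized count + 1) from limma, a moderated linear model fitted to all genes tested, with a limit of 0.05 on the Benjamini-Hochberg adjusted p-value. The largest coefficient of variation between the 2 libraries of a group was 10.3%, for JUNB in untreated cells. No label says whether the 2 libraries of a group came from separate cultures, so all errors measure the spread between these libraries, which may be technical. All 12 markers of colon epithelium had reads in untreated and tryptophan-depleted cells, and their sum was 449411 to 477456 in untreated, 583541 to 616730 in histidine-depleted and 639801 to 643849 in tryptophan-depleted libraries. KRT8 was the largest part of that sum, with a mean of 194082, 330690 and 250852 in the same order, and the markers did not move together. Without histidine 5 were higher and 7 lower (median log2 difference -0.32, beside 39.1% and 38.2% of all genes tested), with log2 differences of 1.74 for KRT20, 1.55 for KRT19, -1.57 for LGALS4, -2.61 for CEACAM5 and -1.38 for CDX2 (all past the limit). Without tryptophan 7 were higher and 2 lower (median 0.38, beside 36.1% and 34.8%), with CEACAM5 higher by 3.92 and KRT20 by 2.38. CDX1, a homeobox factor of gut epithelium, was at 21.9 and 18.9 in untreated cells and had 0 reads in both histidine-depleted libraries, where a count of 0 allows up to 3 reads, or 2.71 and 3.05 normalized counts. Of the 15 markers of leukocytes, mast cells, fibroblasts and endothelium, the summed range was 65009 to 69637, 12552 to 14596 and 38498 to 38522 in the same order, nearly all of it LYZ. The monocyte marker CD14 went another way than LYZ without tryptophan, at 103.8 and 119.4 in untreated, 50.6 and 63.1 in histidine-depleted and 379.9 and 367.2 in tryptophan-depleted libraries. The mast cell markers KIT, CPA3 and TPSAB1 were at 0 reads in every group and MS4A2 had reads in 1 library only (0.904). Of the fibroblast markers COL1A2 was at 0 reads in every library, while COL1A1 was at 66.7 and 69.6 in untreated, 27.1 and 35.6 in histidine-depleted and 51.2 and 61.4 in tryptophan-depleted libraries and PDGFRB at no more than 7.33 in any. The endothelial marker PECAM1 was at 48.1 and 36.8, at 8.13 and 9.16 and at 20.3 and 18.3, and VWF at 7.65 and 3.98, at 42.5 and 40.7 and at 8.54 and 8.24, in the same order. The part of these markers in the changes of the 10 genes was not tested. In bulk RNA, fewer cells of a type and less RNA per cell cannot be told apart.

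After histidine depletion the FOS family rose apart from its founding member. Positions given with each gene are whole gene spans in gencode 44 on GRCh38. FOSB (ENSG00000125740, chr19:45467995-45475179), whose protein resembles c-Fos and which is usually induced briefly, stood at 644.9 and 593.8 normalized counts in the untreated libraries, at 5414 and 5279 in the histidine-depleted ones and at 734.2 and 725.2 in the tryptophan-depleted ones. FOSL1 (ENSG00000175592, chr11:65892049-65900573), which codes for FRA-1, a FOS protein without a strong activation domain, was at 2135 in both untreated libraries, at 14828 and 14573 without histidine and at 2412 and 2562 without tryptophan. Both genes thus had histidine-depleted values far above the other 4 libraries, and tryptophan-depleted values slightly above the untreated ones. On the log2 scale FOSB differed from untreated cells by 3.12 ± 0.06 (SE, 2 against 2 libraries) without histidine and by 0.23 ± 0.07 without tryptophan, the latter past the limit with limma and not with DESeq2. FOSL1 differed by 2.79 ± 0.05 and 0.21 ± 0.05, the latter no longer past the limit on the adjusted p-value without tryptophan-depleted library 2 (0.16). The annotation holds 1 pseudogene named after FOSL1, and how reads that fit both were counted was not stated. A larger difference than that of FOSB was seen in 1.92% of all genes tested after histidine depletion, and a larger one than that of FOSL1 in 2.64%.

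FOSL2 (ENSG00000075426, chr2:28392448-28417317), which codes for the related FRA-2, rose more evenly. It was at 4637 and 4816 normalized counts in untreated, 8531 and 8732 in histidine-depleted and 6167 and 6056 in tryptophan-depleted libraries, with no overlap between groups and the tryptophan-depleted values in between. The log2 difference from untreated was 0.88 ± 0.05 without histidine and 0.36 ± 0.05 without tryptophan. FOS (ENSG00000170345, chr14:75278826-75282230), the prototype of the family, went the other way. It was at 1435 and 1406 in untreated cells, at 1126 and 1100 without histidine and at 1469 and 1504 without tryptophan. FOS was lowest in the histidine-depleted libraries, with a log2 difference of -0.34 ± 0.06, while the difference after tryptophan depletion was 0.06 ± 0.06 and did not pass the limit.

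Among the JUN genes, whose products form the other side of the AP-1 pair, JUN moved in opposite directions in the 2 media. JUN (ENSG00000177606, chr1:58776845-58784048) was at 5903 and 6420 normalized counts in untreated cells, at 19138 and 18876 in histidine-depleted and at 3909 and 4215 in tryptophan-depleted ones. The 3 groups did not overlap, and untreated cells lay in the middle. The log2 difference was 1.64 ± 0.05 without histidine and -0.61 ± 0.05 without tryptophan. JUNB (ENSG00000171223, chr19:12791486-12793315), a weaker activator that can oppose JUN, was at 1767 and 2044 in untreated, 5154 and 5283 in histidine-depleted and 3236 and 3350 in tryptophan-depleted libraries. It was thus higher in both media, by 1.47 ± 0.06 and 0.78 ± 0.05 on the log2 scale. In the annotation 14.2% of the exonic bases of JUNB lie opposite HOOK2, and the use of strand in counting was not stated.

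JUND (ENSG00000130522, chr19:18279694-18281622), the JUN gene that is usually expressed without a stimulus, was at 2599 and 2978 in untreated cells, 3082 and 2937 without histidine and 2754 and 2798 without tryptophan. The 2 untreated libraries lay further apart than the group means, and they overlapped with both depletions. The fold against untreated was 1.09 after histidine depletion (95% interval 0.998 to 1.19) and 0.993 after tryptophan depletion (0.925 to 1.06), and neither passed the limit. The former did pass with the replicate number as a block (log2 difference 0.12). These values rest on single libraries, since without untreated library 2 the log2 difference after histidine depletion became 0.22 and passed, and without untreated library 1 that after tryptophan depletion became -0.11 and passed.

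**Figure D1:**
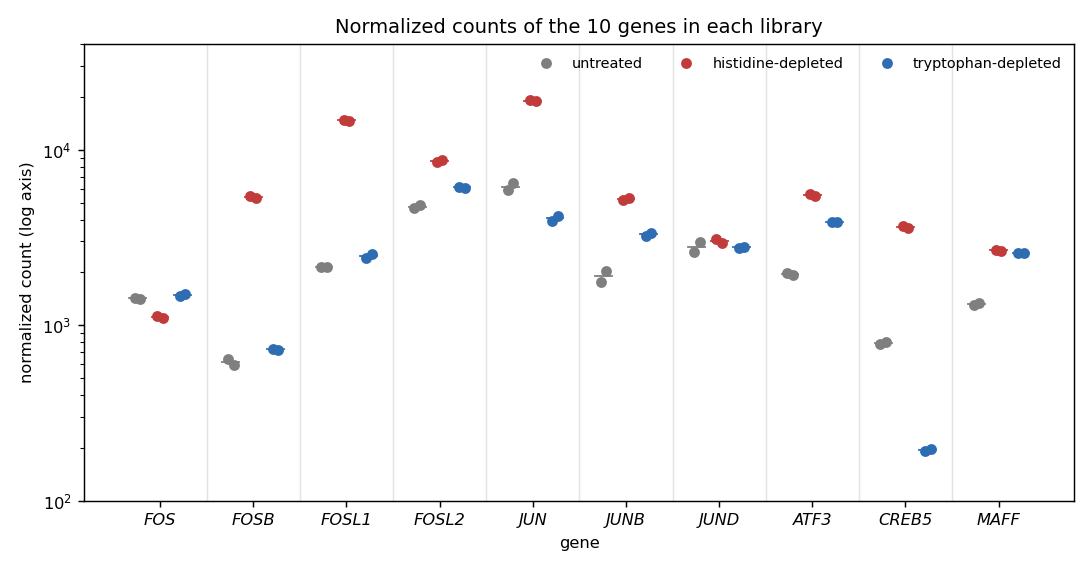
Normalized counts (log axis) of the 10 genes in each of the 6 libraries, points being libraries and short lines the mean of 2, grey for untreated, red for histidine-depleted and blue for tryptophan-depleted cells. FOSB, FOSL1 and JUN have red points far above the rest, CREB5 has red points above and blue points below the grey ones, JUND overlaps, and FOS has its lowest points in red.

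CREB5 (ENSG00000146592, chr7:28299321-28825894), a CRE-binding factor that can pair with JUN, gave the widest span of the group on the log2 scale. It was at 779.3 and 797.7 normalized counts in untreated cells, at 3687 and 3597 without histidine and at 192.1 and 196.0 without tryptophan. The pairs of libraries lay close together and the groups far apart, high without histidine and low without tryptophan. The log2 difference from untreated was 2.22 ± 0.06 in the former and -2.03 ± 0.09 in the latter, where 2.98% of all genes tested had a lower value.

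ATF3 (ENSG00000162772, chr1:212565334-212620777), a stress-induced factor that pairs with JUN proteins and represses or activates depending on the partner, was at 1977 and 1945 in untreated, 5556 and 5422 in histidine-depleted and 3869 and 3887 in tryptophan-depleted libraries. Its log2 difference was 1.49 ± 0.05 without histidine and 0.98 ± 0.05 without tryptophan. MAFF (ENSG00000185022, chr22:38200767-38216507), a small MAF protein that lacks an activation domain and pairs with NFE2-related and BACH factors, was at 1303 and 1345, at 2695 and 2646 and at 2584 and 2589 in the same order. Both were higher in each depletion, but ATF3 stood higher without histidine than without tryptophan while MAFF reached nearly the same level in both media. The log2 differences of MAFF were 1.02 ± 0.06 and 0.96 ± 0.05. In the annotation 5.81% of its exonic bases lie opposite PLA2G6.

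Counted over the group, 8 of 10 genes were higher than untreated after histidine depletion at an adjusted p-value under the limit, beside 39.1% of all 18288 genes tested, and 1 (FOS) was lower, beside 38.2%. With a log2 difference of at least 1 besides, 7 were higher (16.4% of all genes tested) and 0 lower (16.1%). After tryptophan depletion 6 were higher (36.1% of 17960 genes) and 2 lower, JUN and CREB5 (34.8%). With the added limit on size, 0 were higher (10.0%) and only CREB5 lower (10.4%). The median log2 difference of the 10 genes was 1.48 without histidine and 0.22 without tryptophan, beside 0.01 over all genes tested in each comparison. Since the genes were chosen with these changes known, the counts describe the group and nothing is read from them. The comparisons share the untreated libraries.

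The direct comparison of the 2 depletions, made over all 6 libraries, gave a log2 difference of at least 1 for 4 genes. CREB5 was higher without histidine by 4.22 ± 0.06 on the log2 scale, or 18.7-fold, and only 0.575% of all genes tested had a larger difference. FOSB was higher by 2.87 ± 0.06, FOSL1 by 2.56 ± 0.04 and JUN by 2.23 ± 0.05. JUNB (0.66 ± 0.06), ATF3 (0.50 ± 0.04) and FOSL2 (0.50 ± 0.04) were also higher but by less than 1, and FOS was lower by a log2 difference of -0.42 ± 0.05. MAFF (0.05 ± 0.05, fold 1.03, 95% interval 0.966 to 1.10) and JUND (0.12 ± 0.06, fold 1.08, 0.999 to 1.18) did not pass the limit. JUND did pass with the replicate number as a block (0.12) and in the 4 depleted libraries alone (0.10). In all, 7 of the 10 were higher without histidine (38.7% of 18264 genes tested) and 1 lower (38.0%), and with a difference of at least 1 the counts were 4 (16.0%) and 0 (15.8%). The median of the group was 0.58, beside 0.01 over all genes tested.

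**Figure D2:**
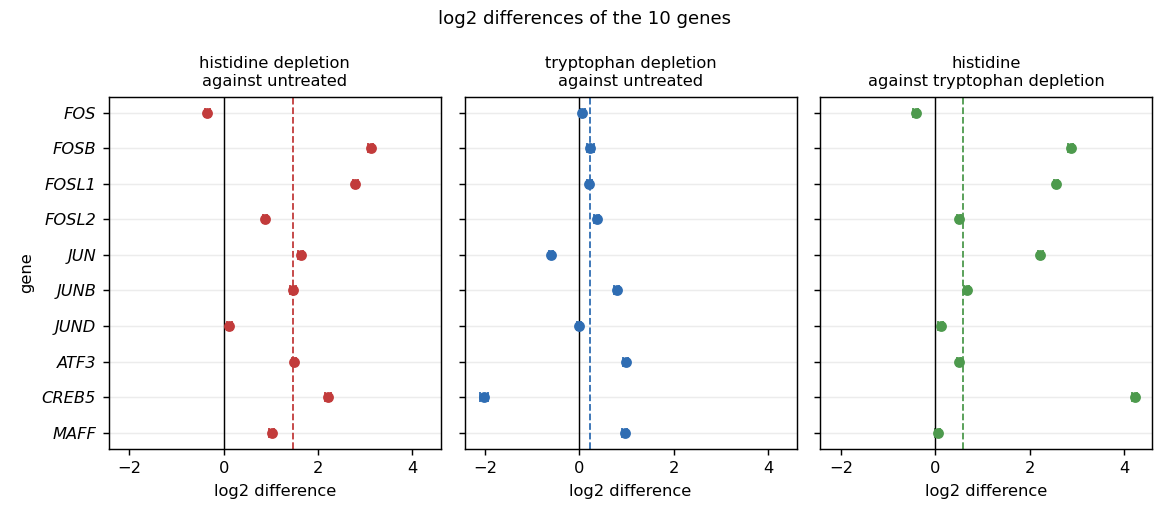
log2 differences of the 10 genes (points) with their standard error (bars, often smaller than the point) in the 3 comparisons, the dashed line being the median of the 10. In the first panel FOS alone lies clearly left of 0, in the second JUN and CREB5 do, and in the third CREB5 lies furthest right at 4.22.

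Levels can be set beside each other between genes only per length, and they are given here as normalized counts per kb of exon. In untreated cells the order was JUN (mean 1700 per kb), JUND (1446), FOSL1 (1131), JUNB (1041), FOSL2 (659.9), ATF3 (490.6), FOS (445.9), MAFF (235.9), FOSB (111.5) and CREB5 (67.5), with no overlap between neighbours. Without histidine FOSL1 came first at 7791 per kb, ahead of JUN at 5245 and JUNB at 2852, and FOS fell to the ninth place at 349.3, above CREB5 at 311.8. Without tryptophan JUNB led at 1799 per kb, followed by JUND at 1439, FOSL1 at 1318 and JUN at 1121, and FOS and MAFF overlapped. CREB5 was last in all 3 groups, at 16.6 per kb in tryptophan-depleted cells. Ranks depend on the length used, and with the length of the canonical transcript, a choice added after the data were seen, ATF3 came first without tryptophan.

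The make-up of the 2 families changed with them. The summed level of the 4 FOS genes was 2345 and 2352 per kb in untreated, 10377 and 10238 in histidine-depleted and 2732 and 2806 in tryptophan-depleted libraries. FOSL1 made up 48.2% and 48.1% of that sum in untreated cells, 75.7% and 75.4% without histidine and 46.8% and 48.4% without tryptophan. FOS went from 19.2% and 18.8% to 3.40% and 3.37% without histidine, and was at 16.9% and 16.8% without tryptophan. The FOS side was thus mostly FOSL1 transcript after histidine depletion and close to its untreated make-up after tryptophan depletion. Within the 3 JUN genes, JUN held 41.3% and 40.0% in untreated cells, 54.5% and 54.2% without histidine and 25.2% and 26.2% without tryptophan, where JUNB was the largest at 41.4% and 41.2%. The summed JUN level was 3942 and 4432 per kb in untreated, 9695 and 9618 in histidine-depleted and 4275 and 4444 in tryptophan-depleted libraries. The ratio of the FOS sum to the JUN sum was 0.595 and 0.531 in untreated cells, 1.07 and 1.06 without histidine and 0.639 and 0.631 without tryptophan. These are transcript levels only.

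**Figure D3:**
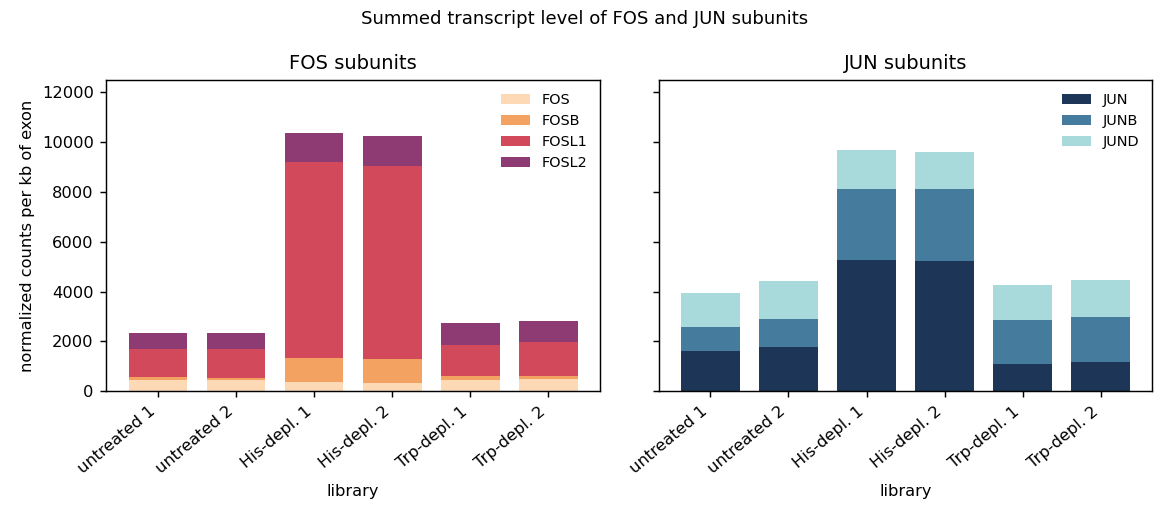
Summed level of the FOS genes (left) and JUN genes (right) in each library, in normalized counts per kb of exon, with the genes stacked. The FOS bars of histidine-depleted cells reach 10377 and 10238 and are mostly FOSL1, and JUN is the smallest JUN segment without tryptophan.

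The coding sequences differ in their use of the 2 amino acids withdrawn. CREB5 has 46 histidine codons among 508, or 9.06%, a share above that of 99.9% of the 13150 protein-coding genes counted, of which the median share was 2.45%. FOSB, at 0.592%, and JUND, at 0.865%, have few. CREB5 and FOSB were higher without histidine, and JUND did not pass the limit there. Whether codon use had a part in these differences was not tested. JUN, JUNB, JUND, ATF3 and MAFF have 0 tryptophan codons, which is so for 6.08% of the genes counted, and CREB5, FOSL1 and FOSL2 have 1 each. Of the 5 genes without tryptophan codons, JUN was lower without tryptophan, JUND did not pass the limit, and JUNB, ATF3 and MAFF were higher.

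The genes whose pattern over the 6 libraries came closest to a member were sought among 11013 genes by the distance of their log2 levels, each set against its untreated mean. For FOSB they were STEAP4, a metalloreductase (distance 0.276), HRH1, the histamine H1 receptor (0.286), and DNAI4 (0.328). HRH1 was at 454.7 and 425.7 normalized counts in untreated, 3506 and 3433 in histidine-depleted and 562.4 and 586.9 in tryptophan-depleted libraries. For FOSL1 they were CDKN1A, the cell cycle inhibitor p21 (0.119), HSPA1A, a heat shock chaperone (0.199), and HCFC2 (0.236). CDKN1A was at 1151 and 1216, at 8591 and 8181 and at 1404 and 1381 in the same order. CREB5 had no near neighbour of that kind, the closest being KBTBD8 (0.534), MYBL1 (0.698) and ARL14 (0.830). These lists only rank likeness over 6 libraries.

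Genes around AP-1 were counted in 8 lists, and adjusted p-values for them come from limma with Benjamini-Hochberg adjustment over all genes tested. The lists were chosen with earlier results of these data known, and the named genes for a large change past the limit. Their p-values therefore describe these genes and support nothing further. In the annotation ATF7, MAFK, KRT17, DDIT3 and NUPR1 share between 10.2% and 31.6% of their exonic bases with another gene on one strand, and KRT17 has 8 named pseudogenes, so their counts are less certain. The list counts that follow stand beside 39.1% of all genes tested higher and 38.2% lower without histidine, 36.1% and 34.8% without tryptophan, and 38.7% and 38.0% in the direct comparison, and no list was tested against them. Among 6 other AP-1 subunits, 4 were tested, and 2 rose and 2 fell in each depletion (median log2 difference -0.08 without histidine and 0.01 without tryptophan). ATF7, a CRE-binding partner of JUN, rose after histidine depletion from 1435 ± 34 to 2389 ± 87 normalized counts (SD, n = 2; log2 difference 0.73, limma adjusted p = 2.29e-11). BATF2, which competes with FOS for JUN, fell in both media, with log2 differences of -0.64 ± 0.14 (limma adjusted p = 0.000237) and -1.06 ± 0.16 (7.99e-10).

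Of 12 relatives of CREB and ATF, 5 rose and 6 fell without histidine (median -0.12), and 7 rose and 3 fell without tryptophan (median 0.21). CREBRF, a regulator of CREB3 that is known to respond to nutrients, rose in both, by 2.56 ± 0.06 (SE) without histidine (limma adjusted p = 6.65e-22) and by 1.09 ± 0.06 without tryptophan (5.06e-38). ATF6, a sensor of unfolded protein in the endoplasmic reticulum, rose after tryptophan depletion by 1.30 ± 0.05 (4.89e-57), while the value after histidine depletion was -0.06 ± 0.05 (adjusted p = 0.313 by limma). With quantile normalization the value after histidine depletion was -0.20 and passed the limit as lower. The direct difference between the media was -1.37 ± 0.04 (limma adjusted p = 2.7e-15).

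Of the partners and relatives of MAFF, 9 were tested. Of these, 6 rose and 2 fell without histidine (median 1.07), and 7 rose and 2 fell without tryptophan (median 0.54). The other small MAF genes rose in both media, MAFK by 1.81 ± 0.06 without histidine (limma adjusted p = 4.34e-19) and 0.43 ± 0.05 without tryptophan (3.79e-12), and MAFG by 1.07 ± 0.05 (9.52e-16) and 0.54 ± 0.05 (1.89e-21). NFE2L1, a membrane-bound relative that controls proteasome genes, rose without tryptophan from 12848 ± 371 to 40661 ± 238 (SD, n = 2; limma adjusted p = 5.8e-66). In histidine-depleted cells its log2 difference was -0.05 ± 0.05 (limma adjusted p = 0.405). With quantile normalization that difference was -0.31 and passed the limit as lower.

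Upstream of AP-1, 16 of 30 MAP kinase pathway genes and nuclear effectors rose and 12 fell without histidine (median 0.16), and 13 rose and 8 fell without tryptophan (median 0.09). SRF, which drives FOS and other immediate early genes, rose by 1.79 ± 0.05 without histidine (limma adjusted p = 1.86e-19), beside the fall of FOS described above, and by 0.28 ± 0.05 without tryptophan (1.95e-07). MAP2K6, an activator of p38, fell without histidine from 2172 ± 90 to 401.8 ± 26.4 (SD, n = 2; limma adjusted p = 1.17e-19). Of the ubiquitin ligases and cofactors that act on AP-1 proteins, 4 of 8 rose and 2 fell without histidine (median 0.17), and 4 of 9 rose and 2 fell without tryptophan (median 0.21). TRIB1, an adaptor of the ligase COP1, rose most, by 1.11 ± 0.05 without tryptophan (limma adjusted p = 1.4e-46).

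Immediate early genes outside the group were counted next. After histidine depletion 26 of 37 rose and 3 fell (median 0.82), and after tryptophan depletion 18 of 36 rose and 9 fell (median 0.25). CCN1, a secreted matrix protein, rose without histidine from 422.4 ± 17.6 to 19232 ± 467 (SD, n = 2; log2 difference 5.51 ± 0.05, limma adjusted p = 3.46e-28). TNFAIP3, which codes for the NF-kB inhibitor A20, rose by 4.50 ± 0.08 without histidine (1.19e-23) and fell by 0.90 on the log2 scale without tryptophan (limma adjusted p = 1.07e-07). KLF4, a factor of epithelial differentiation, rose in both, by 2.97 ± 0.06 (5.26e-23) and 1.99 ± 0.06 (limma adjusted p = 2.27e-67). BTG2, an antiproliferative gene, fell in both, with log2 differences of -1.09 ± 0.06 (3.05e-14) and -1.495 ± 0.06 (limma adjusted p = 1.06e-53). In the direct comparison 26 of 36 were higher without histidine and 6 lower (median 0.86).

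Known targets of AP-1 were divided in both media. Of 38 genes listed, 28 were tested without histidine and 29 without tryptophan, and the rest had too few reads. Among the latter, MMP9 and GJA1 were at 0 in every library. Without histidine 16 of 28 rose and 7 fell (median 0.35), and without tryptophan 16 of 29 rose and 9 fell (median 0.40). KRT17, a stress keratin, rose by 3.39 ± 0.06 (limma adjusted p = 2.22e-23) and 2.02 ± 0.06 (1.78e-70). The laminin chain gene LAMB3 rose by 2.22 ± 0.05 (limma adjusted p = 2.93e-21) and 2.66 ± 0.05 (6.2e-92). CD44, the hyaluronan receptor, fell in both, with log2 differences of -2.77 ± 0.05 (8.32e-23) and -1.28 ± 0.05 (limma adjusted p = 6.38e-55). CXCL8, the neutrophil chemokine, fell without tryptophan from 203.4 ± 4.1 to 27.5 ± 9.5 (SD, n = 2; limma adjusted p = 3.29e-29), and its log2 difference without histidine was -0.21 ± 0.12 (adjusted p = 0.120), past the limit in the fit without a mean-variance trend alone among the alternatives.

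Genes of the ATF4 branch of the stress response, with which ATF3 is usually induced, were counted apart. Without histidine 4 of 14 rose and 5 fell (median -0.06), and without tryptophan 13 rose and 1 fell (median 1.21). DDIT3, the death-associated factor CHOP, rose by 0.69 ± 0.06 without histidine (limma adjusted p = 4.43e-10) and by 1.99 ± 0.05 without tryptophan (8.07e-74). NUPR1, a chromatin stress protein, fell by 1.75 without histidine (3.5e-15) and rose by 1.23 ± 0.05 without tryptophan (limma adjusted p = 1.97e-46) on the log2 scale. In the direct comparison 1 of 14 was higher and 13 lower without histidine (median -1.31), whereas ATF3 itself was higher there by 0.50 ± 0.04.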

How the data were processed

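The authors used STAR 2.7.10a for alignment to GRCh38 and HTSeq 2.0.5 for exon counts (an earlier gencode release than here) and deposited normalized counts, a signal equal to reads divided by a DESeq2 size factor, in a table per depletion. The libraries were stranded and carried molecular identifiers, but whether strand and identifiers were used in counting, and how multiply mapped reads were treated, was not given in the sources used here. Every deposited value was a whole multiple of its library's step (100% within 0.01), which gave back the reads, and untreated reads were identical in both tables. Gene models came from gencode 44, in which 60357 of 60676 identifiers were found.

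Each depletion was compared with untreated cells within its table, and both depletions with each other after scaling the reads of all 6 libraries together by the median of ratios. limma 3.58.1 (R 4.3.3, trend on, two-sided) was fitted to log2(normalized count + 1) where the mean reached 10, with Benjamini-Hochberg adjustment over all genes tested and a limit of 0.05. This scale understates changes of low genes. On simulated data 100 genes were changed by 1 and 100 by 2 on the log2 scale, among 17673 (histidine) and 17612 (tryptophan). The fit recovered 100% of these in both comparisons. Calls on unchanged genes made up 1.96% (histidine) and 4.76% (tryptophan) of its calls. Recovery with as large a share of genes changed as was called in these libraries was not tested. Libraries of a group differed by more than sampling noise (chi-square per degree of freedom 1.85 to 8.77), so none was merged.

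The 10 genes and all lists were chosen with earlier results of these data known. Named list genes are among the 3 with the largest change per list and depletion that passed the limit with a mean of at least 100 in the higher group. Of the genes picked by this rule, 1 is left out and not reported here, and the text gives a selection of the rest. The 3 members with the largest difference after histidine depletion were given their 3 closest genes with a mean of at least 100. The settings varied were the pseudocount (0.5 or 8), the filter (none, or 50 in place of 10), the trend, quantile normalization, edgeR 4.0.16, DESeq2 1.42.0, the replicate number as a block, other sets of libraries and leaving out each library.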

Additional observations from a re-analysis of the deposited data

Results flagged for a closer look

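JUN and CREB5 were called in opposite directions against untreated cells in the 2 depletions, and the direct comparison gave log2 differences of 2.23 for JUN and 4.22 for CREB5 between histidine-depleted and tryptophan-depleted cells, each higher in both histidine-depleted libraries than in both tryptophan-depleted ones. Both genes were chosen with these values known, and both comparisons share the untreated libraries. Of all genes tested, 39.1% were called higher and 38.2% lower without histidine, and 36.1% and 34.8% without tryptophan. How many of all genes were called in opposite directions was not counted, so nothing is read from the pattern of these genes.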

How the results depend on the processing

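With the added limit of 1 on the log2 difference, the members lower without histidine went from 1 to 0, those higher and lower without tryptophan from 6 to 0 and from 2 to 1, and those higher and lower in the direct comparison from 7 to 4 and from 1 to 0. Under every other alternative these counts stayed within 1 of their value. Over all genes, edgeR on the recovered reads called 7169 higher and 7111 lower without histidine, and 6490 and 6349 without tryptophan. FOSB after tryptophan depletion lay short of the limit with DESeq2 (log2 difference 0.22), and FOSL1 without tryptophan-depleted library 2 (0.16). JUND after tryptophan depletion went from -0.11 (without untreated library 1, past the limit) to 0.088 (without untreated library 2) as single libraries were left out, and was 0.01 without tryptophan-depleted library 1, and in the direct comparison it passed in the 4 depleted libraries alone (0.10) and without histidine-depleted library 2 (0.15). Of the list genes, FGF21 after histidine depletion ranged from -0.27 (without untreated library 1) to 0.41 (without untreated library 2), and VLDLR changed sign with quantile normalization (0.14), which also made ATF6 (-0.20) and NFE2L1 (-0.31) pass as lower after histidine depletion. The cause of these changes was not tested. With 1 library left in a group, that library is assumed to vary like the others.

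Untreated and depleted libraries share only a number, and their deviations from the group means correlated by 0.042, 0.002 and -0.041 between groups. With the replicate block, 9 members were higher without histidine and 8 in the direct comparison, JUND passing in each (0.12 in both), and no other member's call changed. The lowest member value, CREB5 without tryptophan, rested on 180 reads or more.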
